A study of Mus musculus with 2 samples.

Results

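The genes described here encode the axoneme of motile cilia and the factors that build it. They are the protein-coding genes whose symbol starts with Dnah, Dnaic, Cfap or Rsph, together with Foxj1, and there were 57 of them among 21901 protein-coding genes. They were picked by a rule on names and not on level. The members and the gene lists set beside them were, however, chosen with earlier results of these data known. RNA of the members was measured by total RNA sequencing in 1 group of 2 libraries. The libraries came from the hippocampus of female B6CASTF1/J mice aged 36 days and were made from 300 ng of RNA each. B6CASTF1/J is a hybrid of a laboratory strain and a wild-derived strain, bought from The Jackson Laboratory, and the labels name no treatment and no engineered allele. The labels number the libraries as biological replicates 1 and 2 and call the tissue a layer of the hippocampus. Each library has a biosample of its own, but both carry the same donor identifier, so the spread between them is that between these samples, which may not come from separate mice. With no second condition the measurements are levels, and the difference between the libraries is described by its size, with no test.

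A motile cilium bends because dynein arms walk along its outer microtubule doublets. The outer arms supply most of the force and the inner arms shape the beat, while radial spokes carry signals to the arms from the central apparatus, the structure around the central microtubule pair. In the brain, motile cilia stand on the ependymal cells that line the ventricles, whereas neurons carry a primary cilium, which lacks dynein arms and spokes. Foxj1 is the transcription factor that switches on motile cilia genes, and the RFX transcription factors act with it by binding paired, inverted DNA motifs.

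The letters upstream of the members are shown first, since RFX factors bind promoters of cilia genes. Promoter sequence from RefSeq (build GRCm38.p6, which is mm10) was matched by symbol for 45 of the 57 members. The unmatched members were Cfap157, Cfap299, Cfap53, Cfap54, Cfap65, Cfap73, Cfap97, Dnah3, Foxj1, Rsph1, Rsph10b and Rsph4a. Within 250 bases before the start, the single motif GTTGCC, read on both strands, stood in 14 of 45 members (31.1%), beside 3195 of 27025 genes in the table (11.8%). An inverted pair, GTNNCC followed after 0 to 3 bases by GGNNAC, stood in 6 of 45 members (13.3%), beside 988 of 27025 genes (3.66%). Cfap298 and Cfap58 held both, so the 2 counts overlap. The 27025 genes were not limited to protein-coding genes, whereas all members are protein-coding, so the shares are not matched for gene type. Dnah7a, Dnah7b and Dnah7c, near-identical in coding sequence, are counted separately among the 14. The pair was added as a search after the data were seen. A match is a description of these letters and not a bound site. The windows below carry the pair in capitals, each 60 bases long and read 5′ to 3′ on the strand of the gene. All windows with the pair in the 6 members are shown, so that its spread of spacings and positions can be read, from the abundant Cfap298 with 2 copies to the thinly counted Cfap77 and Cfap58. Cfap298 at chr16:90935001-90935060 on the minus strand has its pair 188 to 175 bases before the start, and at chr16:90934882-90934941 another 69 to 55 bases before it. For Cfap43 (chr19:47837398-47837457, minus) the pair lies 72 to 60 bases before the start, for Cfap126 (chr1:171122940-171122999, plus) 82 to 69 bases, and for Cfap206 (chr4:34730207-34730266, minus) 23 to 10 bases. The Cfap126 window belongs to 1 of the 3 starts listed for that gene. These starts are those of RefSeq and can differ from the GENCODE M21 gene starts. The windows of Cfap298, Cfap43 and Cfap126 lie inside the GENCODE spans of those genes, and that of Cfap58 reaches into its span. For Cfap77 (chr2:29055257-29055316, minus) it lies 236 to 223 bases and for Cfap58 (chr19:47937629-47937688, plus) 59 to 47 bases before the start.
Cfap298, upper copy: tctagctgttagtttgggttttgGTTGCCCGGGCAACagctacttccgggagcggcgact
Cfap298, lower copy: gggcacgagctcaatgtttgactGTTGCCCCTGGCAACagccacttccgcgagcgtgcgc
Cfap43: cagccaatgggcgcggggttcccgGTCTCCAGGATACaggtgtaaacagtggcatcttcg
Cfap126: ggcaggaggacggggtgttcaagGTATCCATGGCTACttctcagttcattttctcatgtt
Cfap206: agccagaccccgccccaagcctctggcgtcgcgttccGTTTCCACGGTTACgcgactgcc
Cfap77: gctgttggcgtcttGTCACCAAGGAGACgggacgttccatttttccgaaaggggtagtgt
Cfap58: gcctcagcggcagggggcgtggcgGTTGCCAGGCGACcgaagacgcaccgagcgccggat

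A second set of sequences shows how alike some members are, which bears on how reads are divided between them. Dnah7a, Dnah7b and Dnah7c, near-identical inner arm heavy chain genes on chromosome 1, agreed at 96.8% to 97.3% of 12072 aligned coding bases in the GENCODE M21 transcripts. Rsph3a and Rsph3b, copies of a spoke stalk gene on chromosome 17, agreed at 99.2% of 1548 aligned coding bases. Cut into windows of 100 bases, 19.8% of the Dnah7a, 23.7% of the Dnah7b and 24.6% of the Dnah7c coding windows occurred unaltered in another copy. The share was 68.6% for Rsph3a and 66.1% for Rsph3b, so most windows of that length do not tell these copies apart. The stretches below are the same 60 coding bases of each copy with the bases that differ within the family in capitals. They begin at coding base 175 in Dnah7a and Dnah7c, at 307 in Dnah7b and at 19 in Rsph3a and Rsph3b.
Dnah7a: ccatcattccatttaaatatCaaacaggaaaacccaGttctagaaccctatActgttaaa
Dnah7b: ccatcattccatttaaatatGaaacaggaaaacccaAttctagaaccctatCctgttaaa
Dnah7c: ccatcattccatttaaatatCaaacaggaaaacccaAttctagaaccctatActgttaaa
Rsph3a: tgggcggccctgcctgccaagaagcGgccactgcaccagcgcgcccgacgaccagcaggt
Rsph3b: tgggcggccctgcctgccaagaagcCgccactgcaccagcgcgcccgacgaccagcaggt

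Replicate 2 held 30010733 expected counts and replicate 1 held 32298993, leaving out spike-ins. The members together took 11195 counts in replicate 2 and 10070 in replicate 1. All 6 neuron markers were detected, led by Snap25 at 725 TPM in replicate 2 and 851 TPM in replicate 1, Slc17a7 at 529 TPM in replicate 2 and 568 TPM in replicate 1, and Map2 at 433 TPM in replicate 2 and 448 TPM in replicate 1. TPM gives a gene's share of the library's RNA molecules after correction for transcript length. Of the marker lists read, the choroid plexus markers stood furthest apart between the libraries and came to 1322 TPM in sum in replicate 2 and 29.1 TPM in replicate 1. The common spread between the libraries was a coefficient of variation of 0.0898, estimated over 18246 genes. Coordinates are those of mm10 with GENCODE M21. Since it is not given whether counting used the strand, overlaps with genes on the opposite strand are named for members whose results turn on them. Such overlaps were also annotated for Cfap298, Rsph3a, Rsph3b, Cfap74, Dnah1, Cfap45, Rsph10b, Dnah8, Cfap52, Dnah6 and Dnah10.

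Most motile cilia genes were weakly expressed in hippocampus. The median member was at 1.23 TPM in replicate 2 and 0.69 TPM in replicate 1 (0.96 ± 0.38 TPM, SD, n = 2), and the median protein-coding gene was at 3.41 TPM in replicate 2 and 3.19 TPM in replicate 1. Detection was set at 1 TPM in each library, and 24 of 57 members passed it (42.1%), beside 57.8% of all protein-coding genes. In replicate 2 alone 9 further members reached 1 TPM, in replicate 1 alone 1 did, and 23 stayed under 1 TPM in both. Summed over members, the level came to 228 TPM in replicate 2 and 204 TPM in replicate 1, and the 3 highest members held 39.2% of it in replicate 2 and 44.2% in replicate 1. Those 3 were Cfap36, Cfap20 and Cfap298, and none of them encodes an arm or a spoke. In bulk tissue, fewer cells of a type and less RNA per cell cannot be told apart.

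**Figure D1:**
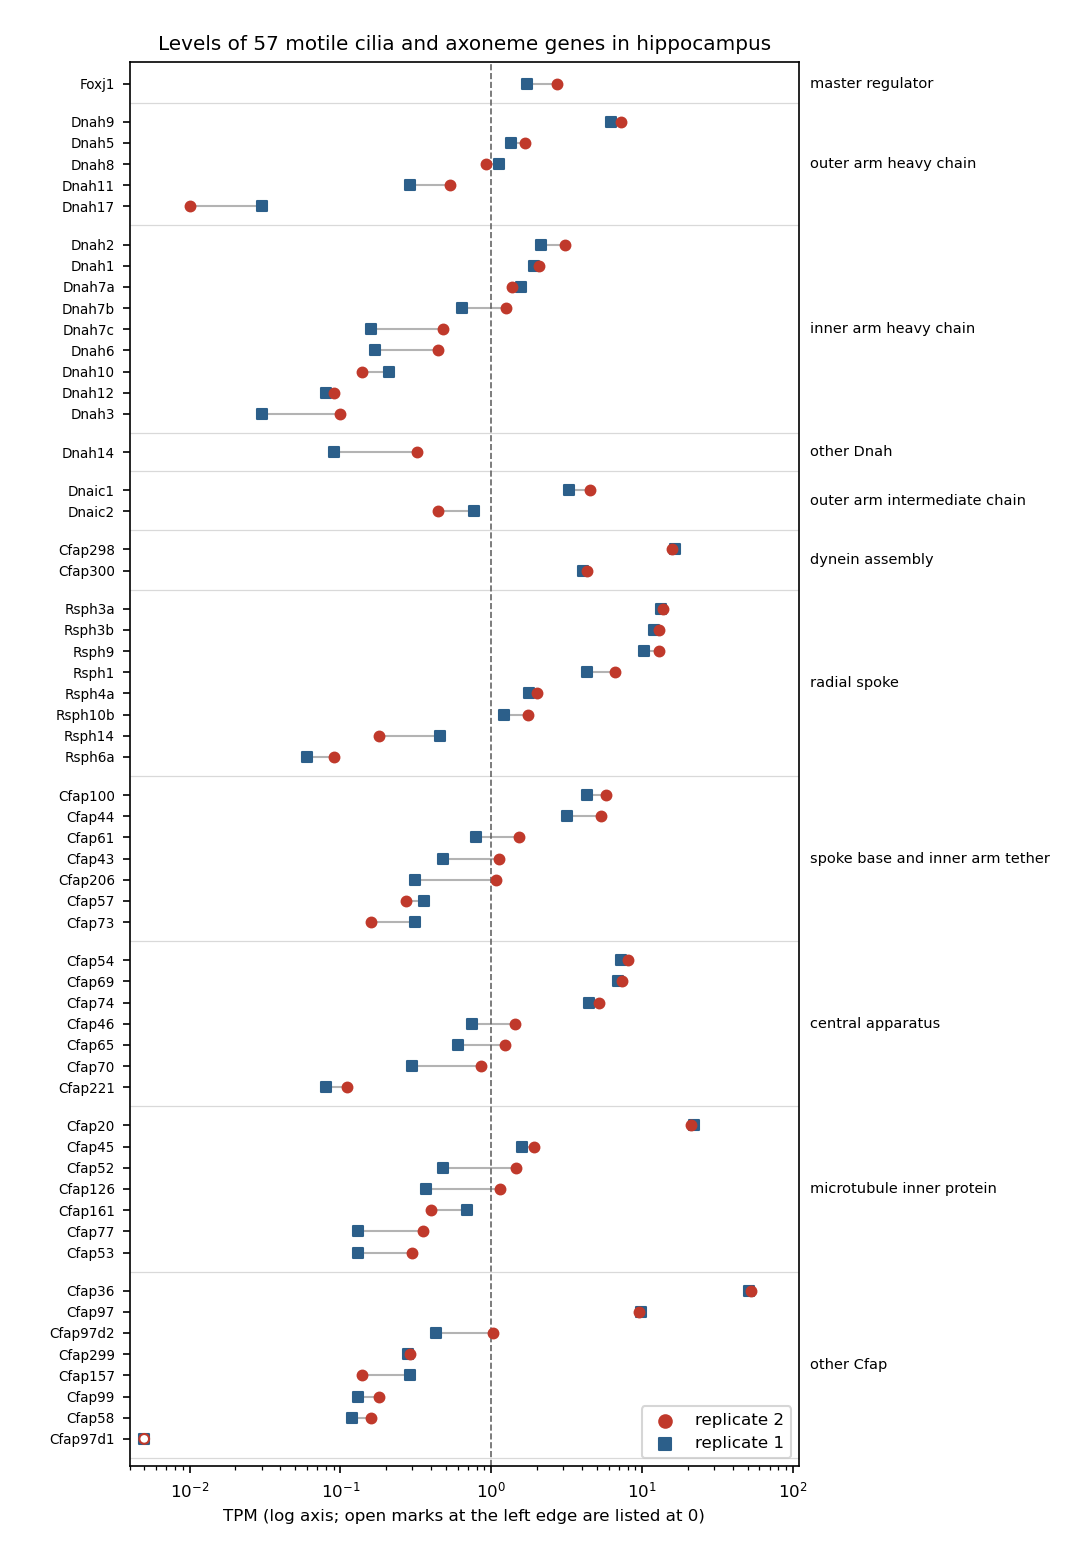
Level of each of the 57 members in TPM (log axis) in replicate 2 (red circles) and replicate 1 (blue squares), grouped by role, with a grey line joining the libraries and the dashed line at 1 TPM. Cfap36, Cfap20 and Cfap298 lie furthest right, most Dnah genes lie left of 1 TPM, and Cfap97d1 was listed at 0 in both.

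Foxj1 (chromosome 11, 116330704 to 116335399), the regulator of the program, had 154 counts in replicate 2 and 103 in replicate 1. This put it at 2.72 TPM in replicate 2 and 1.73 TPM in replicate 1. On scaled counts the log2 ratio, replicate 2 over replicate 1, was 0.65 (95% interval 0.29 to 1.03, exact binomial, counting error only), or 1.57-fold. Foxj1 was therefore higher in replicate 2, by less than 2-fold. It has 1 annotated transcript, and the second quantification deposited by the authors gave a ratio of 0.67.

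Of the 5 outer arm heavy chains, the motors of the outer arm, 2 were detected. Dnah9 (chromosome 11, 65831282 to 66168551), which in human airway cilia occupies the outer part, had 1467 counts in replicate 2 and 1159 in replicate 1. Its 7.29 TPM in replicate 2 and 6.23 TPM in replicate 1 made it the most abundant Dnah gene in both libraries. Its log2 ratio was 0.41 (0.30 to 0.53). Dnah5 (chromosome 15, 28203752 to 28472052), the heavy chain found along the whole arm-bearing length and a frequent cause of primary ciliary dyskinesia in people, had 581 counts in replicate 2 and 492 in replicate 1. It stood at 1.67 TPM in replicate 2 and 1.35 TPM in replicate 1, with a ratio of 0.31 (0.14 to 0.49). Both were thus modestly higher in replicate 2. Dnah11 (chromosome 12), which in human airway cilia occupies the part near the cell, lay under 1 TPM, at 0.53 TPM in replicate 2 and 0.29 TPM in replicate 1. Its 140 counts in replicate 2 and 56 in replicate 1 gave a ratio of 1.39 (0.94 to 1.87), the highest ratio among the outer arm heavy chains. On the opposite strand Dnah11 overlaps Cdca7l, and Dnah9 overlaps Gm12296.

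Dnah8 and Dnah17 are heavy chains known from the sperm flagellum. Dnah8 had 68 counts in replicate 2 and 72 in replicate 1, at 0.92 TPM in replicate 2 and 1.13 TPM in replicate 1. Of the Dnah8 TPM, 1.08% in replicate 2 and none in replicate 1 fell on protein-coding transcripts, so nearly all of its level came from retained-intron, processed and nonsense-mediated-decay forms. Dnah17 had 3 counts in replicate 2 and 9 in replicate 1. In the second quantification Dnah17 had 45.3 counts in replicate 2 and 45.8 in replicate 1, of which 43.3 in replicate 2 and 36.8 in replicate 1 fell on the processed transcript Dnah17-201, to which the first quantification gave 0. The Dnah17 value therefore depended on the quantification.

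The 9 inner arm heavy chains were low, with a median of 0.48 TPM in replicate 2 and 0.21 TPM in replicate 1, and 3 were detected. Dnah2 (chromosome 11, 69420809 to 69549110), a subunit of the double-headed inner arm, had 248 counts in replicate 2 and 197 in replicate 1. It stood at 3.07 TPM in replicate 2 and 2.15 TPM in replicate 1, with a log2 ratio of 0.41 (0.13 to 0.68). Its longest transcript, of 13704 bases, held 79.2% of the counts in replicate 2 and 79.1% in replicate 1. That transcript was at only 0.64 TPM in replicate 2 and 0.49 TPM in replicate 1, so under 1 TPM in both. A coding form of 696 bases was at 1 TPM in replicate 2 and 0.76 TPM in replicate 1. It had 13.4 counts in replicate 2 and 10.7 in replicate 1. Dnah2 overlaps the antisense gene Dnah2os. Dnah1 (chromosome 14, 31260375 to 31323896), a single-headed inner arm chain, had 176 counts in replicate 2 and 160 in replicate 1, at 2.06 TPM in replicate 2 and 1.91 TPM in replicate 1. Its level rested mostly on a transcript annotated without a coding sequence, described further on. Dnah7a had 268 counts in replicate 2 and 254 in replicate 1, at 1.37 TPM in replicate 2 and 1.58 TPM in replicate 1. Its coding transcript was higher in replicate 2, at 0.96 TPM in replicate 2 and 0.85 TPM in replicate 1, and its short processed transcript was lower there, at 0.41 TPM in replicate 2 and 0.72 TPM in replicate 1.

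The copies Dnah7b and Dnah7c shared reads with Dnah7a, as their counts were not whole numbers, and their split is uncertain. Dnah7b had 147 counts in replicate 2 and 110 in replicate 1, at 1.25 TPM in replicate 2 and 0.64 TPM in replicate 1. Dnah7c had 34.8 counts in replicate 2 and 28.3 in replicate 1. Dnah6 had 122 counts in replicate 2 and 51 in replicate 1, a ratio of 1.32 (0.85 to 1.83), at only 0.44 TPM in replicate 2 and 0.17 TPM in replicate 1. Dnah6 was the inner arm chain furthest apart between the libraries among those averaging 20 counts or more. Dnah10, the partner of Dnah2 in the double-headed arm, had 37 counts in replicate 2 and 32 in replicate 1. Dnah12 had 23 counts in each, and Dnah3 had 14 in replicate 2 and 6 in replicate 1. Dnah14, a heavy chain with no arm assigned here, had 22 counts in replicate 2 and 15 in replicate 1. All 8 inner arm chains averaging 20 counts or more had a ratio above 0. Of all protein-coding genes, 43.4% averaging 100 counts or more and 58.6% averaging 20 to under 100 did. The intervals of Dnah1, Dnah7a, Dnah7c, Dnah10 and Dnah12 include 0. Because Dnah7a, Dnah7b and Dnah7c share reads, their ratios are not independent.

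The outer arm is held together by intermediate chains. Dnaic1 (chromosome 4, 41569775 to 41638158) was detected, at 4.51 TPM in replicate 2 and 3.30 TPM in replicate 1, from 75 counts in replicate 2 and 58 in replicate 1. Its exons overlap Enho on the opposite strand, and in the first quantification a retained-intron form took the larger part of its counts in both libraries. Dnaic2, its partner, stood at 0.44 TPM in replicate 2 and 0.77 TPM in replicate 1. With 27 counts in replicate 2 and 45 in replicate 1, its ratio was −0.65 (−1.41 to 0.06), the lowest among members averaging 20 counts or more. The Dnaic1 ratio was 0.44 (−0.07 to 0.96), so the intervals of both chains include 0.

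The assembly factors, cytoplasmic proteins that help to build dynein arms before they enter the cilium, were among the higher members and differed little. Cfap298 (chromosome 16, 90925809 to 90935114) had 381 counts in replicate 2 and 403 in replicate 1, at 15.8 TPM in replicate 2 and 16.6 TPM in replicate 1. Its ratio was −0.01 (−0.21 to 0.20). Cfap300 (chromosome 9, 8021672 to 8042823) had 126 counts in replicate 2 and 135 in replicate 1, with 4.33 TPM in replicate 2 and 4.06 TPM in replicate 1. Its ratio was −0.03 (−0.39 to 0.34), so for both genes the interval lay on either side of 0.

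Radial spoke genes were the group with the highest share detected among those of more than 2 members, 6 of 8. Rsph3a (chromosome 17, 7945614 to 7979824) and Rsph3b (chromosome 17, 6904413 to 6948682), the stalk genes, shared reads. Rsph3a stood at 13.7 TPM in replicate 2 and 13.3 TPM in replicate 1, and Rsph3b at 12.9 TPM in replicate 2 and 11.9 TPM in replicate 1. Rsph9 (chromosome 17, 46122035 to 46144216), a spoke head protein, had 238 counts in replicate 2 and 194 in replicate 1. Its 13.0 TPM in replicate 2 and 10.3 TPM in replicate 1 gave a count ratio of 0.37 (0.09 to 0.65). Rsph1 (chromosome 17, 31255019 to 31277383), also of the spoke head, had 151 counts in replicate 2 and 103 in replicate 1, at 6.58 TPM in replicate 2 and 4.33 TPM in replicate 1. Its ratio of 0.62 (0.26 to 1.00), or 1.54-fold, was the highest of the spoke genes averaging 100 counts or more. Rsph4a (chromosome 10, 33905111 to 33916021), the head protein of ciliary spokes, differed less, with 161 counts in replicate 2 and 148 in replicate 1, at 2.02 TPM in replicate 2 and 1.77 TPM in replicate 1 and a ratio of 0.19 (−0.14 to 0.53).

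Rsph10b (chromosome 5, 143933035 to 143985719), a further spoke head gene, was at 1.74 TPM in replicate 2 and 1.21 TPM in replicate 1, from 71.5 counts in replicate 2 and 56.6 in replicate 1. It shares exons with Pms2 on the same strand, so its value is uncertain. Rsph6a, the relative of Rsph4a used in sperm, had 3 counts in each library. Rsph14 had 4 in replicate 2 and 9 in replicate 1. Rsph6a and Rsph14 were thus at the limit of counting, unlike the other 6 spoke genes.

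At the base of the spokes and the tether of the inner arms, 2 of 7 members were detected. The proteins of these complexes are best known from the green alga Chlamydomonas. Cfap44 (chromosome 16, 44394796 to 44482428), part of the tether that holds an inner arm motor, had 342 counts in replicate 2 and 241 in replicate 1. Its 5.31 TPM in replicate 2 and 3.20 TPM in replicate 1 went with a ratio of 0.58 (0.34 to 0.82). Cfap43, its partner in the tether, was lower, with 74.01 counts in replicate 2 and 27 in replicate 1, at 1.12 TPM in replicate 2 and 0.48 TPM in replicate 1. The Cfap43 ratio of 1.51 (0.88 to 2.22) was 1 of the 2 highest among members averaging 20 counts or more. It shares exons with Itprip on the same strand and its count in replicate 2 was not whole. Cfap100 (chromosome 6, 90403479 to 90428797), a modifier of inner arms, had 145 counts in replicate 2 and 155 in replicate 1, at 5.79 TPM in replicate 2 and 4.28 TPM in replicate 1. It overlaps Zxdc on the opposite strand, and its ratio was −0.02 (−0.36 to 0.31).

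The remaining members of this group lay near or under 1 TPM. Cfap61, at the spoke base, had 54 counts in replicate 2 and 43 in replicate 1, at 1.52 TPM in replicate 2 and 0.79 TPM in replicate 1, and overlaps Crnkl1 on the opposite strand. Cfap206, a spoke base gene whose promoter letters are shown above, had 29 counts in replicate 2 and 13 in replicate 1, at 1.08 TPM in replicate 2 and 0.31 TPM in replicate 1 and a ratio of 1.20 (0.24 to 2.30). Cfap57 went the other way, with 22 counts in replicate 2 and 31 in replicate 1. Cfap73, the partner of Cfap100, had 3 in replicate 2 and 6 in replicate 1.

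The central apparatus group held 7 members, of which 3 were detected. All 6 averaging 20 counts or more had a ratio above 0, though that of Cfap74 was −0.05 in the second quantification. Among all protein-coding genes the share above 0 was 43.4% at 100 counts or more and 58.6% at 20 to under 100. Cfap54 (chromosome 10, 92775619 to 93081618), a projection protein of the central pair, had 980 counts in replicate 2 and 895 in replicate 1. It was at 8.12 TPM in replicate 2 and 7.25 TPM in replicate 1, with a ratio of 0.20 (0.07 to 0.34). Cfap69 (chromosome 5, 5579278 to 5664239) had 353 counts in replicate 2 and 327 in replicate 1, at 7.41 TPM in replicate 2 and 6.91 TPM in replicate 1. Cfap74 (chromosome 4, 155409190 to 155466823), of the same projection as Cfap54, had 306 counts in replicate 2 and 289 in replicate 1, at 5.18 TPM in replicate 2 and 4.45 TPM in replicate 1. For Cfap69 the ratio was 0.18 and for Cfap74 it was 0.16, both with intervals that include 0. In the second quantification the Cfap74 count was 2.03 times as high, so its level is less certain than the agreement of the libraries shows.

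The rest of the central apparatus group was both lower and further apart. Cfap46, another projection protein, had 86 counts in replicate 2 and 47 in replicate 1, at 1.43 TPM in replicate 2 and 0.74 TPM in replicate 1 and a ratio of 0.94 (0.42 to 1.49). Cfap65 (chromosome 1, 74902071 to 74935599) had 134 counts in replicate 2 and 66 in replicate 1, at 1.23 TPM in replicate 2 and 0.60 TPM in replicate 1. Its ratio of 1.09 (0.66 to 1.54), or 2.13-fold, made it the only member over 2-fold apart averaging 100 counts or more, and its mean of 100 counts put it at that limit. It was 2-fold higher in the second quantification too, with a ratio of 1.06, but not on the deposited TPM with 0.1 added, and it overlaps Gm15841 on the opposite strand. Cfap70 had 31 counts in replicate 2 and 11 in replicate 1, at 0.85 TPM in replicate 2 and 0.30 TPM in replicate 1 and a ratio of 1.53 (0.54 to 2.71). Cfap221 had 6 counts in replicate 2 and 5 in replicate 1. The Cfap65 and Cfap70 proteins are placed in this group from Chlamydomonas.

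Microtubule inner proteins line the inside of the doublets, and 2 of 7 were detected. Cfap20 (chromosome 8, 95420249 to 95434869) had 617 counts in replicate 2 and 632 in replicate 1, at 21 TPM in replicate 2 and 22.2 TPM in replicate 1 and a ratio of 0.04. Its counts were not whole, so it shared reads with another gene. Cfap45 (chromosome 1, 172520801 to 172545870) had 84 counts in replicate 2 and 70 in replicate 1, at 1.92 TPM in replicate 2 and 1.61 TPM in replicate 1. Its count was 1.57 times as high in the second quantification. The other 5 stood below. Cfap52 had 39 counts in replicate 2 and 17 in replicate 1, at 1.46 TPM in replicate 2 and 0.48 TPM in replicate 1 and a ratio of 1.25 (0.42 to 2.19). Cfap126, known as Flattop, had 17 counts in replicate 2 and 6 in replicate 1, at 1.15 TPM in replicate 2 and 0.37 TPM in replicate 1. Cfap161 went slightly the other way, with 11 counts in replicate 2 and 12 in replicate 1. Cfap77 had 11 in replicate 2 and 5 in replicate 1, and Cfap53 had 8 in replicate 2 and 4 in replicate 1.

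The 8 remaining Cfap genes spanned the whole range of the members. Cfap36 (chromosome 11, 29221532 to 29247409), whose protein binds the small GTPase Arl3 and is known from primary cilia, was the highest member. It had 1706 counts in replicate 2 and 1772 in replicate 1, at 52.5 TPM in replicate 2 and 51.2 TPM in replicate 1 and a ratio of 0.02 (−0.08 to 0.12). Cfap97 (chromosome 8, 46151771 to 46195590) had 681 counts in replicate 2 and 768 in replicate 1, at 9.56 TPM in replicate 2 and 9.83 TPM in replicate 1 and a ratio of −0.10 (−0.25 to 0.05). It overlaps Snx25 on the opposite strand. For both genes the interval includes 0. Cfap97d2 had 29 counts in replicate 2 and 14 in replicate 1, a ratio of 1.10 that was 0.24 in the second quantification, where its count was 2.35 times as high. Cfap299 had 5 counts in each, Cfap157 had 5 in replicate 2 and 11 in replicate 1, Cfap99 had 8 in replicate 2 and 6 in replicate 1, and Cfap58 had 12 in replicate 2 and 9 in replicate 1. Cfap97d1 had 0 counts in both libraries, which allows up to 0.09996 CPM (counts scaled to library size) in replicate 2 and 0.0929 CPM in replicate 1 (3 counts per library, counting error only).

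Read across the members, the difference between the libraries lay mostly on 1 side. Of 23 members averaging 100 counts or more, 18 had a log2 ratio above 0, beside 43.4% of all protein-coding genes at that depth. Their median ratio was 0.19, and that of all such genes was −0.02. The 5 that were not above 0 were Cfap298, Cfap300, Cfap100, Rsph3a and Cfap97. The shift was small, with 15 of the 23 within 1.25-fold. All ratios here are relative to the bulk of genes, which spike-in scaling moves by 0.27. Under it 23 of the 23 and 97.2% of the genes were above 0, and under total-count scaling 21 and 54.5%, with Cfap298, Cfap300 and Cfap100 above 0 under both. Only Cfap65 was over 2-fold higher in replicate 2, beside 0.338% of all protein-coding genes, and none was over 2-fold lower, beside 0.0761%.

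In the 18 members with a mean count of 20 to under 100, a band set after the counts were seen, 7 were over 2-fold higher in replicate 2. They were Cfap43, Cfap52, Cfap70, Cfap97d2, Cfap206, Dnah6 and Dnah11. Over all protein-coding genes of that band the share was 5.05%. None of the 18 was over 2-fold lower, where 0.825% of the genes were. In this band 15 of 18 members had a ratio above 0, beside 58.6% of genes, and the members' median of 0.42 stood beside 0.07. The exceptions were Dnah8, which turned above 0 under spike-in and total-count scaling, Dnaic2 and Cfap57. Another 16 members had a mean count under 20 and are too thinly counted to be placed.

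**Figure D2:**
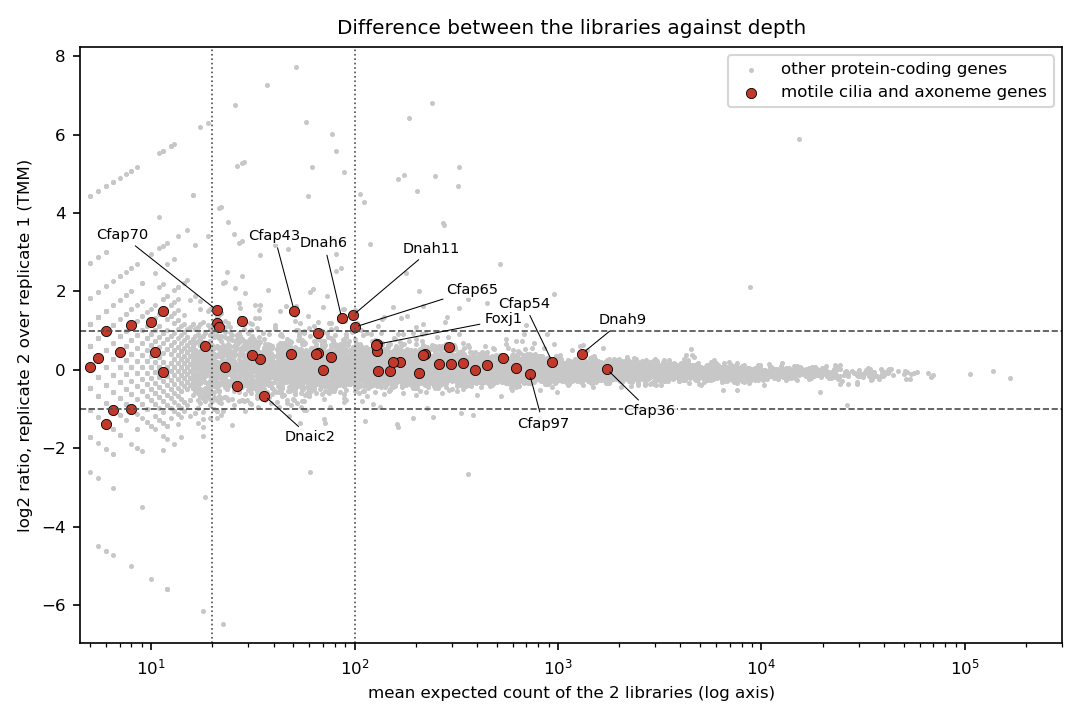
Log2 ratio of replicate 2 over replicate 1 against the mean expected count of the libraries (log axis) for 15206 protein-coding genes averaging 5 counts or more (grey) and the 54 members among them (red). Dashed lines mark 2-fold and dotted lines mean counts of 20 and 100. The members over 2-fold higher lie at a mean count near 100 or below it, and Cfap36, Cfap54, Cfap97 and Dnah9 at the right stay within 2-fold.

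Marker genes of several cell types were read beside the members. The 14 choroid plexus markers summed to 1322 TPM in replicate 2 and to 29.1 TPM in replicate 1, and all 14 were over 2-fold higher in replicate 2, of which Tmem72 was not in the second quantification, with a ratio of 0.61. Ttr, which encodes the transthyretin secreted by the choroid plexus, had 30135 counts in replicate 2 and 533 in replicate 1, or 1237 TPM in replicate 2 and 20.8 TPM in replicate 1. Kl was at 13.3 TPM in replicate 2 and 3.48 TPM in replicate 1, and Sostdc1 at 13.5 TPM in replicate 2 and 1.04 TPM in replicate 1. Averaging 100 counts or more, Aqp1, Cldn2, Clic6, F5, Prlr, Slc4a5 and Tmem72 were also over 2-fold higher, with log2 ratios from 2.71 for Prlr to 5.17 for Clic6. No choroid plexus marker was at 0 in either library.

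Of 12 ependymal markers 4 were detected, and all 12 summed to 23.7 TPM in replicate 2 and to 14.9 TPM in replicate 1. Rarres2 was at 6.48 TPM in replicate 2 and 5.42 TPM in replicate 1, Fam183b at 2.57 TPM in replicate 2 and 2.36 TPM in replicate 1, and Calml4 at 4.30 TPM in replicate 2 and 0.45 TPM in replicate 1. All 5 averaging 20 counts or more had a ratio above 0, with a median of 0.26. That of Fam183b, 0.13 (−0.70 to 0.96), was −1.16 in the second quantification. The intervals of Rarres2, 0.26 (−0.17 to 0.69), and Zbbx, 0.02 (−0.55 to 0.59), also include 0, and those of Calml4 and Ak7 do not. Calml4, with a ratio of 3.18, stood apart and within the choroid plexus range of 1.94 to 6.01. The other ependymal markers averaging 20 counts or more lay from 0.02 to 0.90. None of the 12 ependymal markers was at 0 in either library. No ependymal marker reached a mean count of 100. The 8 meningeal fibroblast markers summed to 109 TPM in replicate 2 and 56.5 TPM in replicate 1, and Igf2, at 62.5 TPM in replicate 2 and 24.7 TPM in replicate 1, was the only one over 2-fold higher, from counts that were not whole. Next by level were Dcn, at 23.3 TPM in replicate 2 and 15.8 TPM in replicate 1, and Col1a1, at 7.08 TPM in replicate 2 and 4.82 TPM in replicate 1. All 8 meningeal fibroblast markers averaged 20 counts or more and had a ratio above 0, with a median of 0.52. Beside the counts above 0 in this paragraph, the share of all protein-coding genes was 43.4% at 100 counts or more. It was 58.6% at 20 to under 100. The intervals of Lum, Slc6a13 and Slc22a6 include 0. The 6 neuron markers all had a ratio below 0, with a median of −0.12, and above 0 under spike-in scaling. Of 10 spermatid markers, 9 had 0 counts in both libraries and Spaca1 had 0 in replicate 2 and 4 in replicate 1. The part of these cell types in the members' ratios was not tested.

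**Figure D3:**
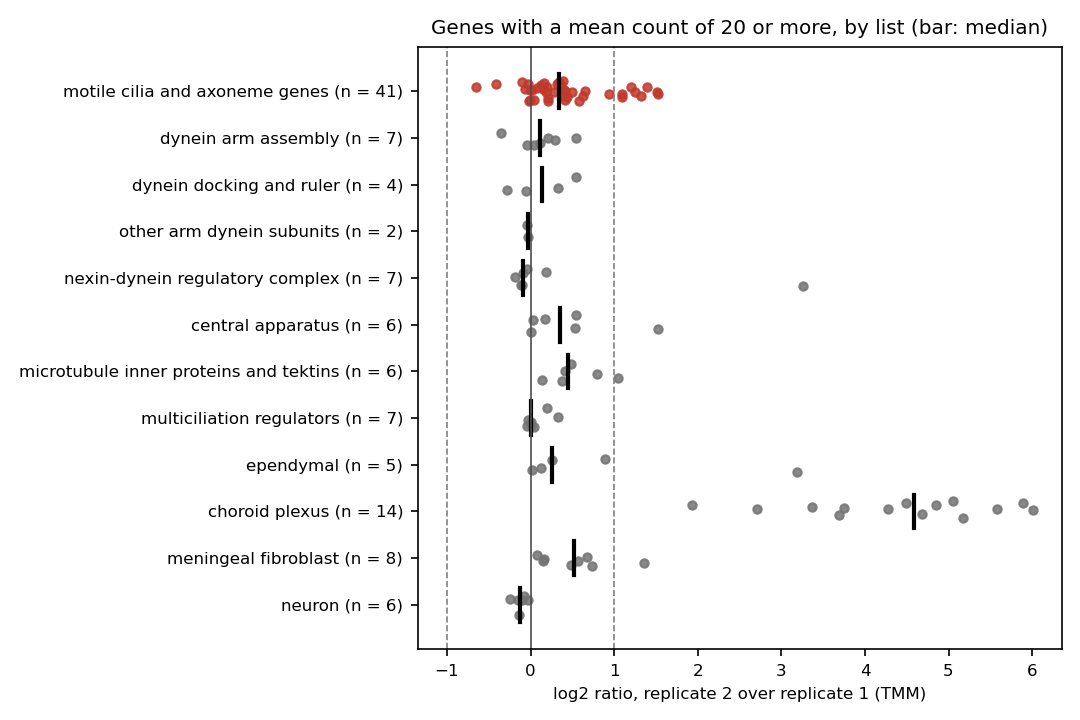
Log2 ratio of replicate 2 over replicate 1 for each gene averaging 20 counts or more, for the 41 members (red) and for the other gene lists (grey), 1 list per row with its number of genes and a bar at its median. The members' median is 0.33 with none below −1, the choroid plexus markers lie from 1.94 to 6.01, and the neuron markers lie just below 0 under this scaling and above it under spike-in scaling.

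Genes of the same structures under other names were read from lists set beside the members. Of 10 dynein arm assembly genes 5 were detected, led by Spag1 at 7.60 TPM in replicate 2 and 7.34 TPM in replicate 1, Wdr92 at 3.89 TPM in replicate 2 and 3.60 TPM in replicate 1, and Dnaaf5 at 3.74 TPM in replicate 2 and 3.36 TPM in replicate 1. None was over 2-fold apart, and Pih1d3 had 0 counts in both. Of 6 docking and ruler genes, which place the arms on the doublet, 3 were detected. The ruler gene Ccdc39 was at 10.7 TPM in replicate 2 and 8.97 TPM in replicate 1, Ccdc151 at 3.66 TPM in replicate 2 and 3.82 TPM in replicate 1, and Ccdc114 at 1.69 TPM in replicate 2 and 1.22 TPM in replicate 1. Of 6 other arm dynein subunits 2 were detected, the light chain Dnal1 at 40.4 TPM in replicate 2 and 41.8 TPM in replicate 1 and Wdr78 at 6.01 TPM in replicate 2 and 6.38 TPM in replicate 1. Next by level was Dynlrb2 at 1.39 TPM in replicate 2 and 0.92 TPM in replicate 1, a gene also on the ependymal list, and Nme8 had 0 counts in both. The light chain gene thus stood above every outer arm heavy chain.

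The nexin-dynein regulatory complex, the link between doublets, had 6 of 10 genes detected. Gas8 was at 10.2 TPM in replicate 2 and 11.0 TPM in replicate 1, Drc1 at 4.64 TPM in replicate 2 and 3.48 TPM in replicate 1, and Efcab2 at 4.09 TPM in replicate 2 and 3.50 TPM in replicate 1. Over the 7 averaging 20 counts or more the median ratio was −0.09. Drc7 was the exception in size, named after its values were seen, with 140 counts in replicate 2 and 15 in replicate 1. Of 7 other central apparatus genes 3 were detected, and over the 6 averaging 20 counts or more the median ratio was 0.35. Spef1 was at 5.11 TPM in replicate 2 and 4.38 TPM in replicate 1, Spag6l at 5.44 TPM in replicate 2 and 3.57 TPM in replicate 1, and Kif9 at 1.83 TPM in replicate 2 and 1.54 TPM in replicate 1. Among other microtubule inner proteins and tektins, Tekt1 was at 1.55 TPM in replicate 2 and 0.88 TPM in replicate 1 and Enkur at 1.14 TPM in replicate 2 and 0.81 TPM in replicate 1, and Tekt3 had 0 counts in both.

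Of 11 regulators of multiciliated cells 7 were detected. Rfx3 was at 60.5 TPM in replicate 2 and 56.5 TPM in replicate 1, where Foxj1 was at 2.72 TPM in replicate 2 and 1.73 TPM in replicate 1. E2f4 was at 13.7 TPM in replicate 2 and 14.7 TPM in replicate 1 and E2f5 at 4.22 TPM in replicate 2 and 4.35 TPM in replicate 1. Rfx3 and the E2f genes also act in cells without motile cilia. None of the regulators was over 2-fold apart averaging 20 counts or more, and their median ratio at that depth was 0.01, where that of Foxj1 was 0.65.

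The members were set beside the cilia and dynein genes most like them that are mostly not particular to motile cilia. All 22 intraflagellar transport and BBSome genes, which build primary cilia as well, were detected, with a median of 10.02 TPM in replicate 2 and 10.99 TPM in replicate 1. Of the 21 averaging 100 counts or more, 9 had a ratio above 0, with a median of −0.01 and a range of −0.36 to 0.39. Of 16 cytoplasmic dynein genes, the motor of transport inside the cell, 15 were detected, with a median of 41.7 TPM in replicate 2 and 45.2 TPM in replicate 1. Of the 15 averaging 100 counts or more, 4 had a ratio above 0, with a median of −0.08. The dynein set was drawn by name and includes Dynlrb2, which is also on the ependymal and arm dynein lists. Dynlrb2 was at 1.39 TPM in replicate 2 and 0.92 TPM in replicate 1 and so was not detected. None of either set was over 2-fold apart, and the differences between the sets were not tested.

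Part of the members' RNA was assigned to transcripts of non-coding types. Among the 21 detected members with at least 2 annotated transcripts, protein-coding transcripts took a median of 73.9% of the gene's TPM in replicate 2 and 68.4% in replicate 1. Over all protein-coding genes treated the same way the median was 86.1% in replicate 2 and 87.0% in replicate 1. In 3 of the 21 the share was under 50% in both libraries, beside 9.18% of 11472 genes. They were Dnah1, at 10.2% in replicate 2 and 7.85% in replicate 1, Rsph3a, at 11.1% in replicate 2 and 11.3% in replicate 1, and Cfap44, at 37.2% in replicate 2 and 36.4% in replicate 1. For Cfap44, though, a single coding form of 6583 bases held 59.4% of the gene's counts in replicate 2 and 73.4% in replicate 1. Its non-stop-decay form of 593 bases had only 18.1 counts in replicate 2 and 8.08 in replicate 1. That short form still made up 30.7% of the Cfap44 TPM in replicate 2 and 21.6% in replicate 1. By counts, Cfap44 was therefore mainly coding. In the second quantification the Rsph3a share was 27.9% in replicate 2 and 25.7% in replicate 1. For Dnah1 the only annotated processed transcript, 2897 bases long, took 116 of 176 counts in replicate 2 and 116 of 160 in replicate 1. The full-length Dnah1-201, 12872 bases long, took 60.04 counts in replicate 2 and 44.14 in replicate 1, or 0.21 TPM in replicate 2 and 0.15 TPM in replicate 1. The level given for Dnah1 is thus mainly that of a short non-coding form.

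Dnah9 and Dnah5 were different. The full-length Dnah9-201, 13798 bases long, took 1308 counts in replicate 2 and 881 in replicate 1, the larger part of the gene's counts in both. Dnah5 has a single transcript of 15637 bases, so all its counts were placed on the coding form. The major transcript of 15 of the 21 genes was the same in the second quantification. It differed for Cfap44, Cfap45, Cfap54, Cfap69, Dnaic1 and Rsph1.

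**Figure D4:**
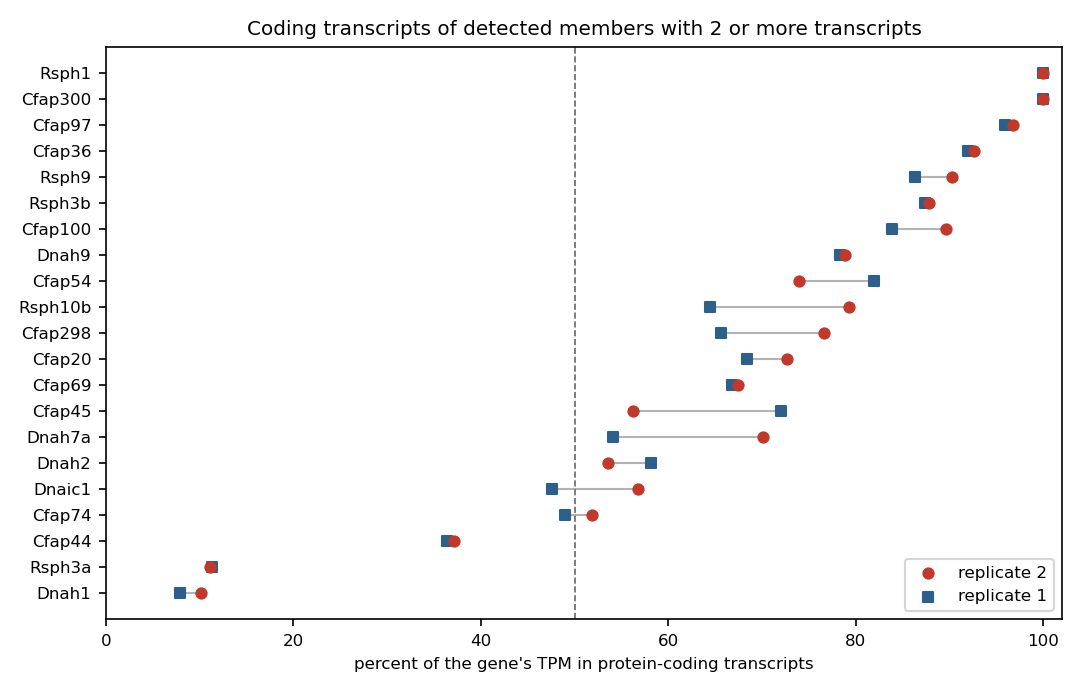
Percent of each gene's TPM in protein-coding transcripts in replicate 2 (red circles) and replicate 1 (blue squares), for the 21 detected members with at least 2 annotated transcripts, and the dashed line at 50%. Dnah1, Rsph3a and Cfap44 lie left of the line in both libraries, while Rsph1 and Cfap300 stand at the right edge.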

How the data were processed

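Total RNA libraries of 1 group (n = 2) were used, with 3 tables each on build mm10 and annotation M21, per the deposited readme. The gene table and the first transcript table hold expected counts, in which the authors divided a read among the transcripts it fits, and TPM, per the file headers. Per the file headers, the other transcript table carries estimated counts and TPM of a repeat quantification by the authors (called the second). The column names are those RSEM and kallisto write, but the software is not given in the sources used here. Whether counting used the strand is not given there either, so genes overlapping on opposite strands may share reads. All 55536 gene identifiers matched GENCODE M21. The 26248 numbered entries, with 4.88 counts in replicate 2 and 4 in replicate 1, and the spike-ins were left out of library sizes.

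The expected counts, rounded to integers, were scaled by TMM (edgeR 4.0.16, R 4.3.3) with a prior count of 0.5. Genes off a whole number by more than 0.005 share reads. Of the members 8 do, Cfap20, Cfap43, Dnah7a, Dnah7b, Dnah7c, Rsph3a, Rsph3b and Rsph10b. Intervals are exact Clopper-Pearson at 95% on a member's counts of both libraries and cover counting error only. The ratio step was tested on simulated data. Alternatives were DESeq2 1.42.0 size factors, total-count and spike-in scaling, the second quantification, the deposited TPM with 0.1 added, other minimums of count and TPM, other folds and prior counts, and each library alone. Other steps used scipy 1.17.1, numpy 2.4.6 and pandas 2.3.3 under Python 3.11.15. The members and the gene lists were chosen with earlier results of these data known. By rule, the text names every detected member, members over 2-fold apart at a mean of 100 counts, Foxj1, the 5 next highest members under 1 TPM, members at 0, and the 3 highest genes of each list, with choroid plexus genes over 2-fold apart. A gene of a list is not reported here. The other members were named so that all 57 are accounted for.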

Additional observations from a re-analysis of the deposited data

How the results depend on the processing

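The count of 24 detected members became 29 at 0.5 TPM, 17 at 2 TPM and 32 in the second quantification, and 25 to 33 with 1 library alone. The members' median TPM, 0.96 as reported, was 2.10 in the second quantification and 5.06 over members averaging 100 counts, and lay from 0.69 to 1.23 with 1 library alone. The second quantification can give higher TPM at near-equal counts. In replicate 2 Foxj1 had 162 counts and 4.41 TPM there, beside 154 counts and 2.72 TPM in the first. The 1 TPM limit is thus not the same limit in both, and the share of all protein-coding genes in the second is not given. The count of members over 2-fold higher in replicate 2, 1 as reported, was 8 at a mean count of 20 or more, 0 at 500 or more, 11 with no minimum, 2 in the second quantification (Cfap65 and Dnah11), 0 on deposited TPM and 3 at 1.5-fold. The count over 2-fold lower was 2 with no minimum (Rsph14 and Dnah17) and otherwise 0. The median log2 ratio, 0.19 as reported, was 0.46 under spike-in scaling, which moved all genes by 0.27, and 0.33, 0.12 and 0.32 at a mean count of 20 or more, at 500 or more and with no minimum. Fewer or more genes compared make up the count-minimum settings, and the cause of the other differences was not tested. The ratios of 25 members were recomputed, and of these 12 moved by more than their counting interval under spike-in scaling and none under DESeq2 or total-count scaling or in the second quantification. No paired analysis was possible because there is 1 group. Members under 20 counts are limited by depth.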
